A study of Nicotiana tabacum with 6 samples.

Results

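Terpene synthases are the enzymes that turn prenyl diphosphates into the carbon skeletons of terpenes, and 160 of the 69500 tobacco gene models in the deposited tables carried the words terpene synthase in their description. The rule used the description alone and no measured value. Expression had been measured by RNA-seq in young leaves of tobacco seedlings (Nicotiana tabacum, NC82), all held at 4 °C for 24 h. There were 6 libraries, 3 from plants overexpressing NtPhyA, a gene named for the light receptor phytochrome A, and 3 from wild-type plants of the same variety. The series title speaks of resistance to cold, but every library came from chilled leaves, so only the plant materials could be compared. The promoter of the transgene, the number of transgenic lines and whether replicates came from separate plants are not stated. The p-values therefore reflect the spread among these 6 libraries, part of which may be technical.

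Plants make the 5-carbon units of all terpenes by a plastid route, the methylerythritol phosphate (MEP) pathway, and a cytosolic route, the mevalonate pathway. Prenyl diphosphate synthases join these units into chains, and terpene synthases cyclise or rearrange the chains into monoterpenes, sesquiterpenes and diterpenes. Tobacco is known for diterpenes secreted by the glandular hairs of the leaf surface and for the sesquiterpene phytoalexin capsidiol, which leaves make when attacked. Terpene synthase genes form large families in plants, often as rows of neighbouring copies. The files describe the models by protein domains and give no enzyme name or product, so which terpene a model makes is not known here. None of the 160 identifiers matched the RefSeq gene table, which holds no Nitab4.5 identifier, so that no model could match.

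Values are normalized abundances per gene model as the authors deposited them. Library totals ran from 440137 to 568208, and 31369 to 33469 models per library were above 0. The number of reads behind a value is unknown. Leaf genes were abundant in every library, with the 76 models described as chlorophyll a/b-binding (antenna) proteins whose sums in replicates 1, 2 and 3 were 6172, 3152 and 1296 for wild type and 8217, 4416 and 1651 for overexpression. The 14 models of the small subunit of Rubisco, the carbon-fixing enzyme, summed to between 6560 and 29354. Models described as root cap proteins summed to at most 12.8. The 179 models with the word pollen in their description summed to between 954 and 1759, and in wild-type replicate 3 to more than the antenna models. The word alone does not show that a transcript came from pollen. In that library the 34 histone H2A models, at 1498, also exceeded the antenna models. The 22 histone H4 models, at 719, and the 129 kinesin models, at 38.0, did not. What other tissues the samples held was not tested. The 10 models described as phytochromes, the light receptors to which the transgene's name belongs, had sums of 9.40, 4.57 and 1.6 for wild type and 9.75, 3.82 and 4.36 for overexpression. These sums overlapped between the groups and were not tested. The descriptions do not single out NtPhyA, and a sum over 10 models cannot show whether a single one was higher. Whether NtPhyA transcripts were raised is therefore not known here, and the group names below follow the labels. Within each group the libraries differed severalfold in antenna transcripts, and in both groups replicate 1 was highest and replicate 3 lowest.

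By their described domains the 160 models fell into 4 classes. Both the N-terminal and the metal-binding domain of terpene synthases were named in 76 models, the metal-binding domain alone, which holds the catalytic metal ions, in 56, and the N-terminal domain alone in 24. The other 4 models were drawn in by the words terpene synthase, conserved site, and are described as squalene cyclases, a family that closes the rings of sterols and triterpenes. So 156 of the 160 bore a terpene synthase domain in their description.

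Most of the family was listed at 0 or at low values in these leaves. In all, 71 models (44.4%) were listed at 0 in all 6 libraries, against 37.4% of all models in the files. Some models of widely used genes were also at 0, though a smaller share. Per library, 17 or 18 of the 22 histone H4 models were above 0, against 48 to 60 of the 160 terpene synthase models. Whether a listed 0 means absence of the transcript cannot be told from these values. A further 49 had a mean above 0 and below 0.1, and 20 had a mean between 0.1 and 1. Only 20 models (12.5%) reached the mean of 1 over the 6 libraries that was required for testing, against 25.8% of all models, and 9 of these had a mean of 10 or more. The models with both domains held 13 of the 20. Of the 76 models with both domains 27.6% were at 0 throughout, against 60.7% of the 56 with the metal-binding domain alone and 62.5% of the 24 with the N-terminal domain alone. Models with 1 domain are often pieces of a gene or incomplete copies, but whether that holds for these models was not tested. How the authors' counting divided reads between near-identical copies is uncertain.

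**Figure D1:**
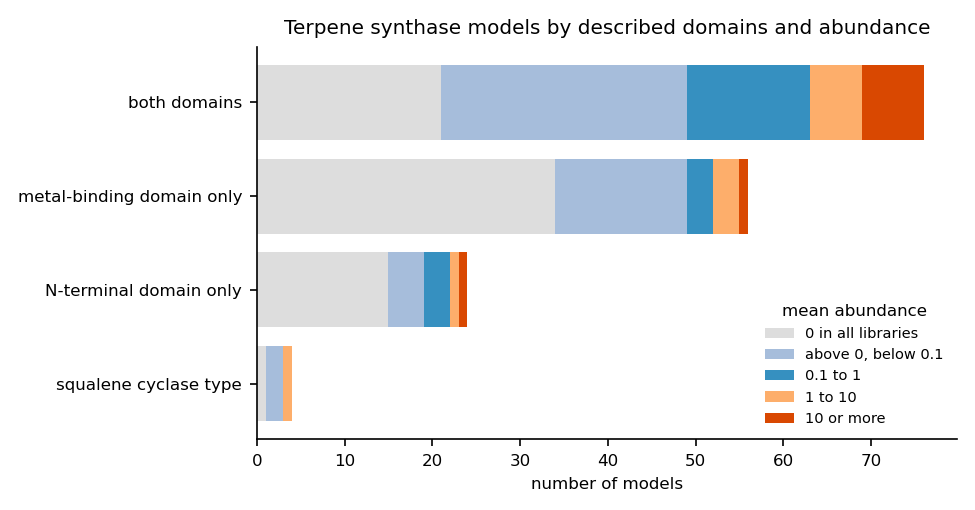
Number of terpene synthase models (x axis) in each class of described domains (y axis), divided by the mean normalized abundance over the 6 libraries. The 71 models at 0 in all libraries make up the palest part, and 7 of the 9 models with a mean of 10 or more name both domains.

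Many members were neighbours. The identifiers placed them on 106 scaffolds of the Nitab4.5 gene set, and 85 of them shared a scaffold with at least 1 other member. On the 31 scaffolds with at least 2 members, 22 had no tested member, 5 had exactly 1, and 4 had more. The 6 members on scaffold 0000418 never exceeded 0.05 in any library, the 6 on scaffold 0000037 never exceeded 0.15, and the 5 on scaffold 0011321 were all at 0. On scaffold 0002717 the most abundant member of the family, with a mean of 141, lay beside 4 other members that never exceeded 0.18. On scaffold 0010662 a model with a mean of 16.6 was followed by 1 at 0 in all libraries and 1 with a mean of 0.265. On scaffold 0002418 a model with a mean of 10.4 shared the scaffold with 2 whose means were 0.045 and 0. On these 3 scaffolds a high level was seen in 1 model and not in the other members there. Of 36 pairs of members with adjacent numbers, 7 joined a model with the N-terminal domain alone to one with the metal-binding domain alone.

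Summed over the 160 models, terpene synthase abundance was 319.6, 614 and 455 in wild-type replicates 1, 2 and 3, and 373, 508 and 1052 in overexpression replicates 1, 2 and 3. The group means were 463 ± 147 and 644 ± 359 (SD, n = 3 each), a ratio of 1.39, and the groups overlapped. The high mean of the overexpression group rested on replicate 3: without that library the ratio was 0.951. As a share of the library total the sum ran from 0.0694% to 0.136% in wild type and from 0.0784% to 0.239% in the overexpression group. In each group replicate 1, which had the most antenna transcripts, had the lowest terpene synthase sum. The part of antenna level in these differences was not tested. In bulk leaf RNA, fewer cells of a type and less RNA per cell cannot be told apart.

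The sum was made by few models. The 2 most abundant held 44.6% of it, the 6 most abundant 85.1% and the 10 most abundant 95.1%, as means over the libraries. The 20 tested models together held between 98.0% and 99.1% in every library. The 2 most abundant, however, held 43.7%, 54.9% and 53.9% of it in wild-type replicates 1, 2 and 3 and 29.2%, 34.2% and 51.7% in overexpression replicates 1, 2 and 3. Without those 2 models the sums were 180, 277 and 209.8 in wild type and 264, 335 and 508 in the overexpression group, a ratio of means of 1.66. In that smaller sum overexpression replicate 1, at 264, still lay below wild-type replicate 2, at 277.

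**Figure D2:**
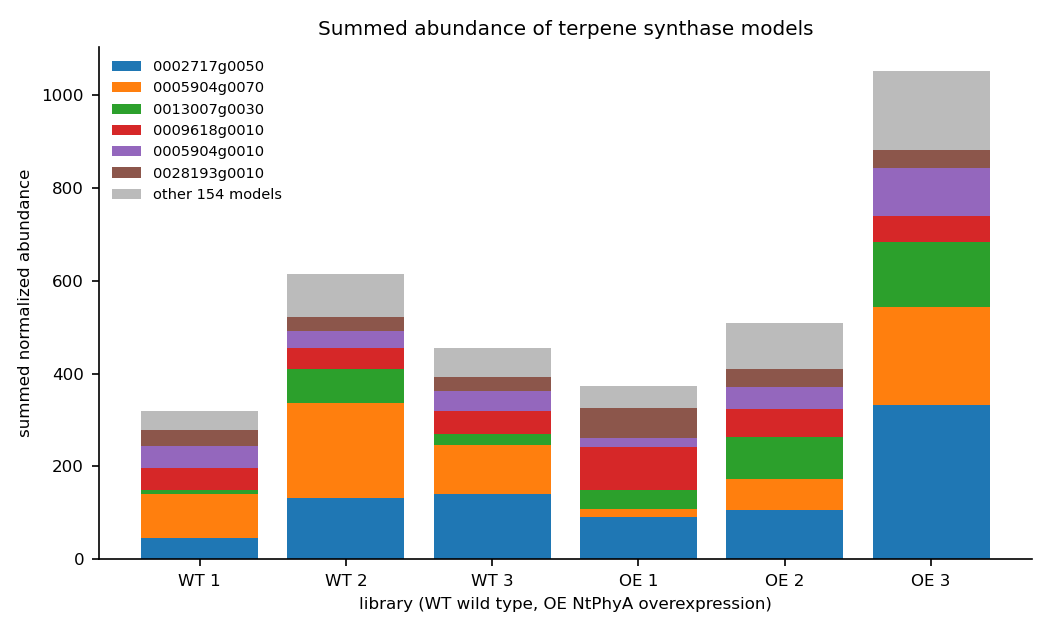
Summed normalized abundance of the 160 terpene synthase models (y axis) in each library (x axis), divided into the 6 most abundant models and the others; identifiers omit the prefix Nitab4.5_. Overexpression replicate 3, at 1052, stands above the other 5 libraries, which lie between 319.6 and 614.

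The model with the highest mean, Nitab4.5_0002717g0050, names both domains. Its abundance was 46.34, 130.81 and 140.69 in wild-type replicates 1, 2 and 3 and 90.22, 106.87 and 331.78 in overexpression replicates 1, 2 and 3. Overexpression replicate 3 was the highest library and the groups overlapped, with means of 106 ± 52 and 176 ± 135 (SD, n = 3) and a log2 difference of 0.63 (95% confidence interval from -0.83 to 2.09).

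Scaffold 0005904 carried both the second and the fifth most abundant model. Nitab4.5_0005904g0070 was at 93.23, 206.40 and 104.70 in wild type and at 18.63, 66.88 and 212.10 in the overexpression group. Its levels spanned 11.4-fold between overexpression replicates 1 and 3, and the log2 difference of -0.95 had an interval from -2.87 to 0.96. Nitab4.5_0005904g0010 was steady in wild type, at 48.02, 36.91 and 42.25, and was at 19.84, 45.46 and 103.51 in the overexpression group. Both were lowest in overexpression replicate 1 and highest in overexpression replicate 3, while the ratio of the first to the second ranged from 0.939 to 5.59 over the libraries. These models, which share a scaffold but do not have adjacent numbers, thus did not keep a fixed proportion.

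The third model, Nitab4.5_0013007g0030, names the N-terminal domain alone and had the largest log2 difference of the tested members. It was at 9.71, 73.68 and 24.14 in wild type and at 40.11, 88.96 and 139.51 in the overexpression group. Wild-type replicate 2 exceeded overexpression replicate 1, so the groups overlapped, and the estimated log2 difference of 1.56 ± 0.75 (SE; limma adjusted p = 0.999) had an interval from -0.19 to 3.32.

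A similar order of libraries was seen in models with lower means. Nitab4.5_0000414g0110 was at 5.65, 28.97 and 18.84 in wild type and 8.76, 27.33 and 62.32 in the overexpression group. Nitab4.5_0010662g0010 was at 3.18, 16.36 and 11.68 and at 9.25, 26.56 and 32.29, a log2 difference of 1.12 (interval from -0.39 to 2.63). Both had replicate 1 as the lowest library of each group, and their values overlapped between the groups. Nitab4.5_0008226g0020 was at 0.37, 2.12 and 1.04 in wild type and 1.41, 3.56 and 4.98 in the overexpression group, again with replicate 1 lowest on both sides. Its neighbour Nitab4.5_0008226g0010, which names the metal-binding domain alone, had the same lowest and highest library, and the ratio of the former to the latter stayed between 1.61 and 3.30.

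**Figure D3:**
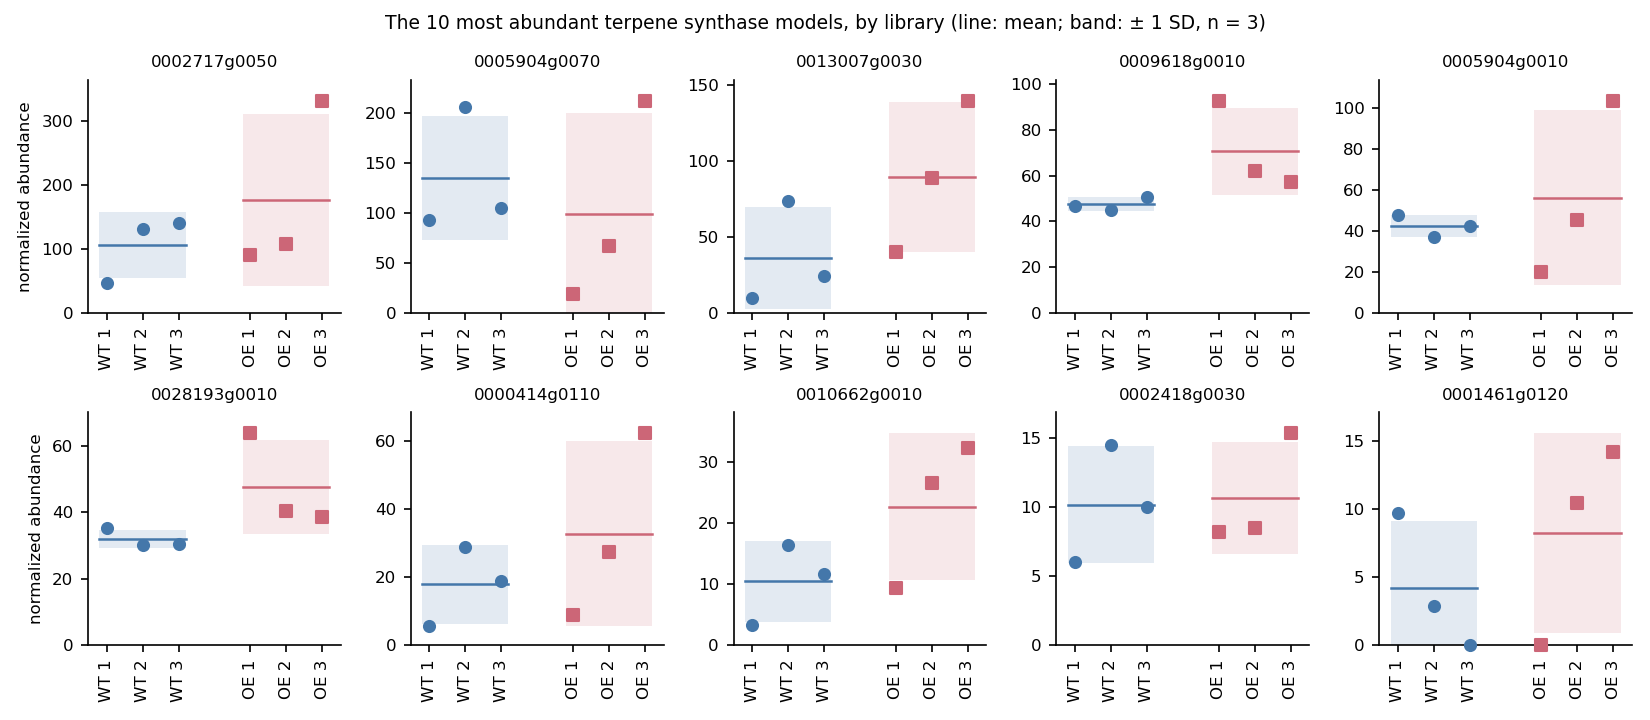
Normalized abundance (y axis, separate scale from 0 in each panel) of the 10 most abundant terpene synthase models in the 6 libraries (x axis), with circles for wild type (WT), squares for NtPhyA overexpression (OE), lines for group means and bands for 1 SD on each side, ended at 0; identifiers omit the prefix Nitab4.5_. In 8 of the 10 panels overexpression replicate 3 is the highest library; in the fourth and the sixth it is overexpression replicate 1.

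A separate pattern was shown by Nitab4.5_0009618g0010, with the metal-binding domain alone, and Nitab4.5_0028193g0010, with both domains. The first was at 46.67, 44.86 and 50.79 in wild type and at 92.69, 61.95 and 57.25 in the overexpression group. The second was at 35.20, 30.29 and 30.32 and at 63.85, 40.45 and 38.48. In both models all 3 overexpression libraries lay above all 3 wild-type libraries, and the wild-type values were close together. The group means were 47.4 ± 3.0 and 70.6 ± 19.2 for the first and 31.9 ± 2.8 and 47.6 ± 14.1 for the second (SD, n = 3). The log2 differences were 0.53 ± 0.27 and 0.53 ± 0.28 (SE; limma adjusted p = 0.999 for both), with unadjusted p of 0.0893 and 0.0992. The ratio of the first model to the second was between 1.33 and 1.68 in all 6 libraries, while the level of the first spanned 2.07-fold and that of the second 2.11-fold. The pair was set side by side after its values were seen. Whether they are copies of a gene or parts of one was not tested.

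Groups without overlap were found in 3 of the 20 tested members (15%), all higher in the overexpression group, where 4.01% of all 17962 tested models were higher without overlap, 3.86% lower and 7.87% either. Nothing is read from the share in the members, since 1 of the 3 reached the mean of 1 only through its overexpression libraries. That model was Nitab4.5_0015320g0010, with both domains and low values, at 0.60, 1.03 and 0.46 in wild type and 1.81, 1.32 and 1.18 in the overexpression group. The difference was 0.53 ± 0.30 on the log2 scale (SE), with an adjusted p of 0.999 in limma. In all 3 models overexpression replicate 1 was the highest library, in contrast to the 11 members whose highest library was overexpression replicate 3. With 3 libraries against 3, an exact permutation of the libraries cannot give a two-sided p below 0.1.

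No terpene synthase model passed the threshold of a Benjamini-Hochberg adjusted p below 0.05 in limma, where 0.00557% of all tested models (1 of 17962) did. The adjusted p was 0.999 for each of the 20 members. At an unadjusted p below 0.05 there was 1 member, against 2.82% of all tested models. The 95% confidence intervals of the log2 differences reached from 0.63 to 2.83 log2 units on either side of the estimate, and 19 of the 20 intervals included 0. Of the 20 estimates 16 were above 0 and 4 below, and their median was 0.53, against a median of -0.01 and 48.3% above 0 among all tested models. The requirement of a mean of 1 can favour members through the group in which they are high, and over the 89 members above 0 in any library 52 estimates were above 0 and 37 below. Without overexpression replicate 3 the median of the tested members was 0.20, with 12 of 20 above 0.

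**Figure D4:**
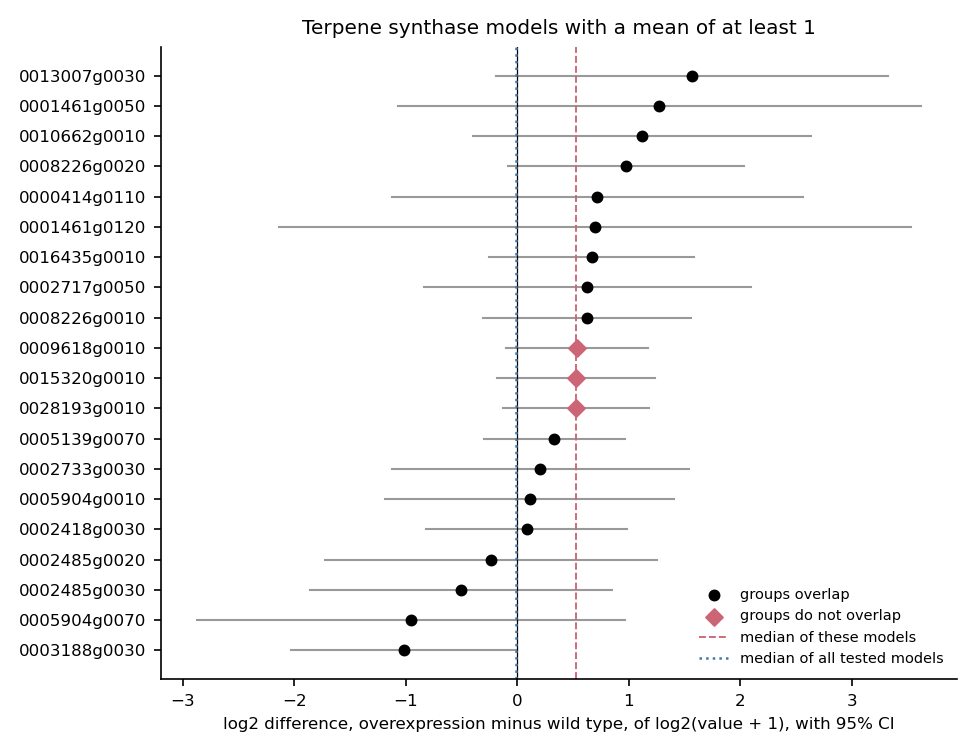
Log2 difference, overexpression minus wild type, of log2(value + 1) with its 95% confidence interval from limma (x axis) for the 20 tested terpene synthase models (y axis; identifiers omit the prefix Nitab4.5_). Diamonds mark the 3 models whose groups do not overlap, and dashed and dotted lines mark the medians of these models (0.53) and of all tested models (-0.01).

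The member with the smallest unadjusted p was lower in the overexpression group. Nitab4.5_0003188g0030, with the metal-binding domain alone, was at 2.34, 1.33 and 1.53 in wild type and was listed at 0, 0 and 1.38 in the overexpression group. The third overexpression library lay inside the wild-type range, and the log2 difference was -1.02 ± 0.43 (SE; limma unadjusted p = 0.0495, adjusted p = 0.999). Low and interrupted values were also seen on scaffold 0001461. Nitab4.5_0001461g0120 was at 9.68, 2.85 and 0 in wild type and 0, 10.45 and 14.21 in the overexpression group. Nitab4.5_0001461g0050 was listed at 0 in all 3 wild-type libraries and in overexpression replicates 1 and 2, and at 13.12 in overexpression replicate 3. It was the only member at 0 in all libraries of one group with a mean of at least 1 in the other, and 1 library alone made that difference. Values of 0 beside values near 10 in the same model may be failed estimates or true absences, which the files do not tell apart.

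The remaining tested members had lower means or estimates nearer 0. Nitab4.5_0002418g0030 was at 6.00, 14.51 and 9.99 in wild type and 8.18, 8.49 and 15.35 in the overexpression group, with a log2 difference of 0.09 (interval from -0.82 to 0.99). Nitab4.5_0005139g0070, the only tested model of the squalene cyclase type, was at 4.17, 2.55 and 3.81 and at 5.50, 4.36 and 4.05. Its lowest overexpression library lay just under the highest wild-type one. The adjacent models Nitab4.5_0002485g0020 and Nitab4.5_0002485g0030 had log2 differences of -0.23 and -0.50. Omitting wild-type replicate 2 turned the former to 0.39, and omitting overexpression replicate 1 turned it to 0.23 and the latter to 0.011. The pair was not in a fixed proportion, and the ratio of the former to the latter varied from 0.248 to 3.22. Nitab4.5_0016435g0010 had a difference of 0.67. The member that just met the mean of 1 was Nitab4.5_0002733g0030, at 1.27, 0 and 1.09 in wild type and 2.63, 1.01 and 0 in the overexpression group. The member just under it, Nitab4.5_0009590g0020 with a mean of 0.893, was at 0.79, 0.70 and 0.25 and at 1.33, 1.27 and 1.02. The other untested members had lower means, and the highest value of any untested member in a library was 1.33.

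Differences between libraries of the same group were larger, in the median, in the terpene synthases than over all tested models. The highest wild-type library was a median of 3.04 times the lowest over the 17 tested members above 0 in all 3, where the median over 17244 tested models was 1.89. Under overexpression it was 3.48 times over 16 members and 1.86 over 17362 models. The related lists were not compared in this way, so a spread particular to terpene synthases is not shown. Replicate 1 was the lowest library in both groups in 11 of the 20 members (55%), and in 18.4% of all tested models. It was the highest in both groups in 3 members (15%) and in 24.0% of all tested models. This order was noted after the values were seen, and nothing in the labels pairs replicates by number. Antenna transcripts, given above, were highest in replicate 1 of both groups, and their part in these values was not tested.

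No model of the terpenoid pathway or of the related carrier families passed the test either. Of the 7 lists of related genes, 120 models were tested and 0 were called at an adjusted p below 0.05 in limma, where the smallest adjusted p was 0.999. An unadjusted p below 0.05 was found in 8 of them (6.67%, against 2.82% of all tested models), of which 6 were lipid transfer proteins, 1 was an ABC-2 type transporter and 1 a hydroxymethylglutaryl-CoA lyase, and none was an enzyme of terpenoid synthesis. Estimates of the MEP pathway, which supplies plastid monoterpene and diterpene synthesis and also chlorophyll and carotenoids, were above 0 in 10 of 11 tested models, with a median log2 difference of 0.35. That median was 0.04 when wild-type replicate 3 was left out and was 0.12 when overexpression replicate 1 was. The 16 models of this list summed to 233, 186 and 121 in wild type and to 296, 221 and 159 in the overexpression group, so that replicate 1 was highest and replicate 3 lowest in each group, as for the antenna proteins. A model of the cyclodiphosphate synthase, a middle enzyme of the route, Nitab4.5_0003015g0100, had the highest mean of the list, at 37.6 ± 11.4 in wild type and 44.5 ± 17.8 in the overexpression group (SD, n = 3). The enzyme of the step that adds a cytidyl group, Nitab4.5_0001085g0130, followed with 28.4 ± 5.4 and 33.5 ± 8.0, and a reductoisomerase, Nitab4.5_0009783g0020, with 26.4 ± 11.7 and 32.9 ± 11.2. The groups overlapped in all 11 tested models of the list.

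Mevalonate pathway models, which supply sesquiterpene and sterol synthesis, showed another order of libraries. They summed to 296, 501 and 274 in wild type and 338, 469 and 552 in the overexpression group, and their estimates were above 0 in 11 of 13 tested models, with a median of 0.18. The median was 0.10 when wild-type replicate 1 was left out and 0.33 when wild-type replicate 2 was, and 9 of 13 were above 0 when either replicate 3 was left out. The list as worded includes 2 tested models of hydroxymethylglutaryl-CoA lyase, which belongs to other pathways, and without them 10 of 11 were above 0. The most abundant model was a hydroxymethylglutaryl-CoA reductase, the rate-limiting step of the route, Nitab4.5_0004448g0010, at 112 ± 26 in wild type and 119 ± 20 in the overexpression group (SD, n = 3). A second reductase, Nitab4.5_0004529g0010, was at 35.21, 108.09 and 41.57 in wild type and at 54.27, 91.69 and 111.03 in the overexpression group. A diphosphomevalonate decarboxylase, the enzyme that makes isopentenyl diphosphate, Nitab4.5_0001437g0070, was at 25.78, 94.10 and 41.15 and at 25.08, 82.86 and 162.95. In these last models replicate 1 was the lowest library of each group, as it was in 7 of the 13 tested models of the list and in 0 of the 11 of the MEP list. Replicate 1 was the highest in both groups in 10 of the 11 MEP models and in 0 of the 13 mevalonate models.

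Isopentenyl diphosphate isomerase, which interconverts the 5-carbon units, was represented by 3 tested models with log2 differences between -0.11 and 0.10. The direction of each turned when single libraries were left out. Nitab4.5_0001435g0050 was at 97.5 ± 26.8 in wild type and 94.2 ± 31.1 in the overexpression group, Nitab4.5_0003099g0070 at 54.8 ± 22.2 and 48.9 ± 14.5, and Nitab4.5_0000971g0070 at 32.2 ± 16.7 and 35.4 ± 21.5 (SD, n = 3). All 3 had replicate 1 as the lowest library of both groups. Prenyl diphosphate synthases, which make the substrates of terpene synthases, had 9 of 15 estimates above 0 and a median of 0.21, which became 0.0018 without overexpression replicate 1. Their sums were 274, 297 and 228 in wild type and 328, 319.95 and 332 in the overexpression group, without overlap between the groups. The sums were not tested. Of the 15 tested models 1 was higher without overlap and 1 lower, where 7.87% of all tested models did not overlap in either direction. The most abundant model, Nitab4.5_0006469g0010, was at 28.60, 60.21 and 56.83 in wild type and 23.93, 66.06 and 95.29 in the overexpression group. Nitab4.5_0002216g0020 was at 17.11, 57.56 and 37.69 and at 23.44, 66.41 and 83.68. Both had the lowest value of each group in replicate 1, whereas Nitab4.5_0001922g0120, at 35.38, 34.67 and 25.77 and at 74.02, 42.14 and 23.74, had the highest value there.

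The branch to sterols and carotenoids, with squalene and phytoene synthases and squalene epoxidases, had 4 of 8 estimates above 0 and a median of -0.04, which became 0.34 without wild-type replicate 1 or without overexpression replicate 3. A squalene/phytoene synthase, Nitab4.5_0000091g0360, was at 239.65, 84.00 and 42.32 in wild type and 166.32, 95.72 and 24.90 in the overexpression group, the order of the antenna proteins. The squalene epoxidases Nitab4.5_0003390g0020 and Nitab4.5_0000036g0190 were at 44.1 ± 23.1 and 41.3 ± 14.4 in wild type and at 65.0 ± 8.9 and 61.8 ± 9.0 in the overexpression group (SD, n = 3).

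Families that handle secreted lipids and metabolites were added for comparison, since terpenes are released at the leaf surface. Transporters with an ABC-2 type domain, a class that includes exporters of terpenes, had 11 of 18 estimates above 0 and a median of 0.14, which became -0.03 without wild-type replicate 3. Their most abundant model, Nitab4.5_0002205g0010, was at 110.74, 198.55 and 66.98 in wild type and 166.67, 209.18 and 415.06 in the overexpression group. Nitab4.5_0000306g0200 was at 81.66, 213.07 and 51.10 and at 166.36, 224.95 and 388.80. In both models wild-type replicate 2 and overexpression replicate 3 were the highest libraries of their groups, as in the terpene synthase sum. Nitab4.5_0002205g0020, beside the first on its scaffold, was at 65.01, 112.25 and 53.56 and at 10.05, 60.09 and 268.37. Over the 18 tested models of this list, however, replicate 1 was the highest library in both groups in 8 and the lowest in both in 1. Lipid transfer proteins, small secreted carriers common in the leaf epidermis, had 15 of 52 estimates above 0 and a median of -0.16, which became 0.09 without overexpression replicate 3. The list holds some glycolipid transfer and storage proteins by its wording. Its leading model, Nitab4.5_0000046g0200, was at 1227 ± 379 in wild type and 961 ± 476 in the overexpression group, followed by Nitab4.5_0001711g0040 at 876 ± 557 and 409.9 ± 124.8 and Nitab4.5_0002588g0020 at 256 ± 74 and 379 ± 263 (SD, n = 3).

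**Figure D5:**
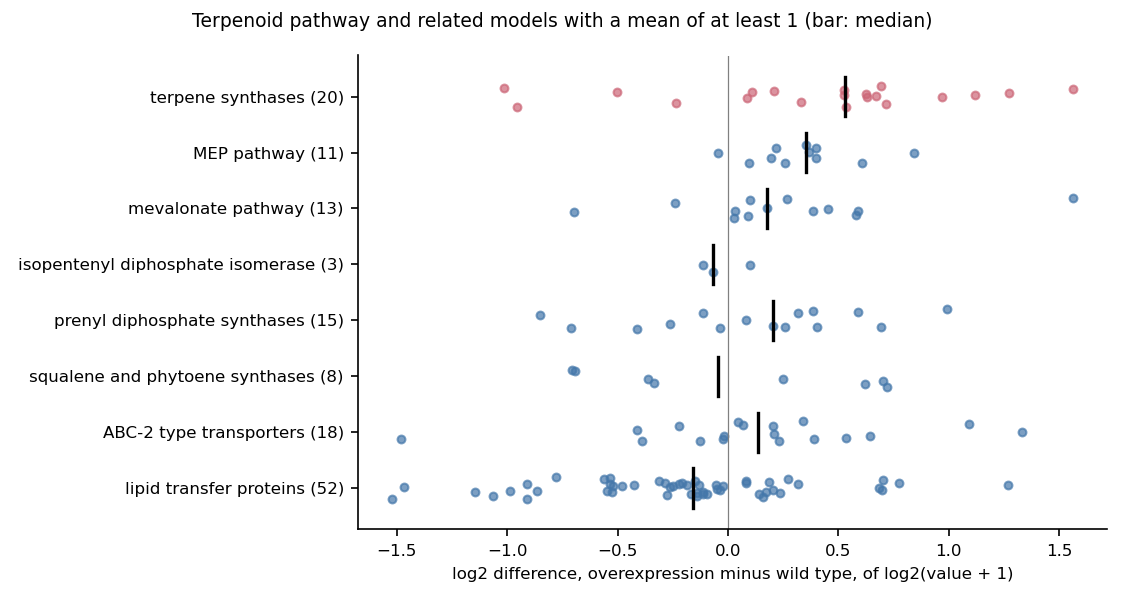
Log2 difference, overexpression minus wild type, of log2(value + 1) for each tested model (points, x axis) of the terpene synthases and of 7 related lists (y axis, number of tested models in brackets), with a bar at each median. The medians run from -0.16 in lipid transfer proteins to 0.53 in terpene synthases, and every list spreads to both sides of 0.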

How the data were processed

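Total RNA of young leaves was made into paired-end TruSeq libraries, per the labels' protocols. The submitters' processing notes name HISAT2, StringTie and RSEM, and give no versions, settings or genome build. The deposited values are a normalized abundance signal per gene model and library, in 2 tables, 1 per plant material. TPM and FPKM cannot be told apart from what the labels say, and joint normalization of the 2 tables is not stated, so levels set across the tables assume comparable libraries. The authors' group means equal the means of the libraries and were not used.

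Values were taken as log2(value + 1). Models whose mean over all 6 libraries reached 1, 17962 in number, entered a limma fit (version 3.58.1, R 4.3.3; group only, trend and robust options), with Benjamini-Hochberg adjustment over all of them and calls at an adjusted p below 0.05. Fold changes of low values are understated on this scale. The fit was run on simulated data with independent noise for each model and library. Differences shared by many models of a library were not simulated, so the error rate in these data was not tested. The planned form for counts was not used because the values are not counts.

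Members and lists were chosen with earlier results of these data known. Named were members that were called, were among the 10 most abundant, showed no overlap between groups at a mean of at least 1, had 1 of the 5 smallest p-values, were at 0 in one group only, lay next to the mean of 1 or shared a scaffold with at least 2 others, and the 3 most abundant models of each list; the few other tested members were named after their values were seen. The 4 squalene cyclase models were left out of the squalene list, and 3 squalene synthases matched by 2 lists were counted there once. Alternatives were a pseudocount of 0.1, other filters, 2 scalings, a block for replicate number and the omission of each library in turn.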

Additional observations from a re-analysis of the deposited data

How the results depend on the processing

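No terpene synthase model and no terpenoid pathway model was called under any of the 12 alternatives. The single call among all models was 0 with a pseudocount of 0.1, without a filter, with equal library totals, with median-of-ratios scaling and with the replicate block, and 0 (lowest) to 0 (highest) when a library was left out. The block gave the median log2 difference of 0.53 again. No pairing is stated. Deviations from the group mean correlated at 0.56, -0.11 and 0.42 between same-numbered libraries, and at -0.58 to 0.13 between the others. Such deviations sum to 0 within a group, so these correlations are tied to one another and cannot show a pairing. The summed ratio of 1.39 ranged from 0.951 (without overexpression replicate 3) to 1.68 when a library was left out. The median of the 20 tested terpene synthases stayed above 0, from 0.20 without overexpression replicate 3 to 0.63 with equal library totals. Over the 89 models taken without a filter the median was 0.016. Of these, 69 had a mean below 1, where log2(value + 1) understates fold changes. Named models whose log2 difference changed sign when a library was left out ranged from -0.47 to 0.69 for Nitab4.5_0005904g0010, -0.21 to 0.36 for Nitab4.5_0002418g0030, -0.20 to 1.93 for Nitab4.5_0001461g0120, -0.25 to 0.68 for Nitab4.5_0002733g0030, -0.58 to 0.39 for Nitab4.5_0002485g0020, -0.97 to 0.011 for Nitab4.5_0002485g0030, -1.51 to 0.79 for Nitab4.5_0002205g0020, -0.073 to 0.54 for Nitab4.5_0003015g0100, -0.059 to 0.62 for Nitab4.5_0009783g0020, -0.31 to 0.17 for Nitab4.5_0001435g0050, -0.50 to 0.15 for Nitab4.5_0003099g0070, -0.44 to 0.65 for Nitab4.5_0000971g0070, -0.34 to 1.08 for Nitab4.5_0002588g0020, -0.11 to 0.25 for Nitab4.5_0004448g0010, -0.023 to 1.30 for Nitab4.5_0001437g0070, -0.21 to 0.77 for Nitab4.5_0006469g0010 and -0.94 to 0.41 for Nitab4.5_0000091g0360. Equal library totals gave 0.039 for Nitab4.5_0001435g0050, against -0.07. The causes were not tested. Count-based tests (edgeR, DESeq2) were not run because the values are not counts, and read depth behind low values is unknown.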
